A study of Mus musculus with 28 samples.

Results

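Blood progenitors were the smallest of the 12 cell types annotated in embryoid bodies (EBs), the floating aggregates in which mouse embryonic stem cells were made to differentiate. They were taken here as every cell that the deposited table assigned to the blood progenitor type, which gave 245 of 31596 annotated cells. All 245 came from libraries of days 4 to 5, and none of the 18833 cells of days 3 and 3.5 had this type. The type coincided with 1 of 18 clusters drawn from joint factors of RNA and open chromatin, with no other cell in that cluster. Of the 245 cells, 244 were WT and 1 was Eomes-KD.

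The cells carried Runx1Venus, a reporter of the blood regulator Runx1, and EomesmCherry-degron, a tag on the T-box factor EOMES that lets the small molecule dTAG-13 remove the protein. Both conditions carried both alleles. Eomes-KD cultures received 100 nM dTAG-13 from day 3, and WT cultures received DMSO from day 3. The methods end the exposure at day 4, whereas the design text gives days 3 to 5. EBs grew in VEGF, BMP4 and Activin A, and nuclei were profiled for RNA and open chromatin together. This gave 14 libraries (6 Eomes-KD, 8 WT) from 2 separate differentiations, exp1 and exp2. For each condition, day 4 was sampled in both experiments, day 4.5 in exp1 alone and day 5 in exp2 alone, so that for the latest days the day, the experiment and the single library cannot be told apart. All cells came from this 1 degron line. The loss of EOMES was not checked here.

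The first blood cells of the mouse embryo arise in the yolk sac (YS). Mesoderm gives rise to hematoendothelial (HE) cells, which can form endothelium or blood. The earliest wave makes primitive erythroid cells, nucleated red cells rich in embryonic haemoglobin, and some megakaryocytes, the source of platelets. A later wave from hemogenic endothelium of the YS makes erythro-myeloid progenitors (EMPs). Runx1 and Gata1 are transcription factors of these lineages, Itga2b encodes the surface protein CD41 of early blood cells, and Hbb-bh1 encodes an embryonic globin. The deposited table holds no expression values of single genes, so these 4 markers could not be checked, and the cell type is used as annotated. What the table does hold for each cell is the label of its nearest cells in an atlas of mouse gastrulation, the embryonic stage of those cells, and quality measures.

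Blood progenitors appeared at day 4 and were frequent at days 4.5 and 5 in WT EBs alone. At day 4, Eomes-KD libraries held 0 of 1453 cells (exp1) and 0 of 2966 cells (exp2), whereas WT libraries held 10 of 1443 cells (exp1, 0.693%, 95% Wilson interval 0.377 to 1.27) and 4 of 2818 cells (exp2, 0.142%, interval 0.0552 to 0.364). On day 4.5, Eomes-KD held 1 of 1722 cells (0.0581%, interval 0.0103 to 0.328) and WT held 73 of 445 (16.4%, interval 13.3 to 20.1). On day 5, Eomes-KD held 0 of 1177 cells and WT held 157 of 739 (21.2%, interval 18.4 to 24.3). At each of the 3 days every WT library lay above every Eomes-KD library. At day 4, however, the interval of the 4 cells of WT exp2 overlapped those of both Eomes-KD libraries. These ran from 0 to 0.264% in exp1 and from 0 to 0.129% in exp2. Intervals cover counting error only, and shares do not tell fewer cells of a type from more cells of others.

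**Figure D1:**
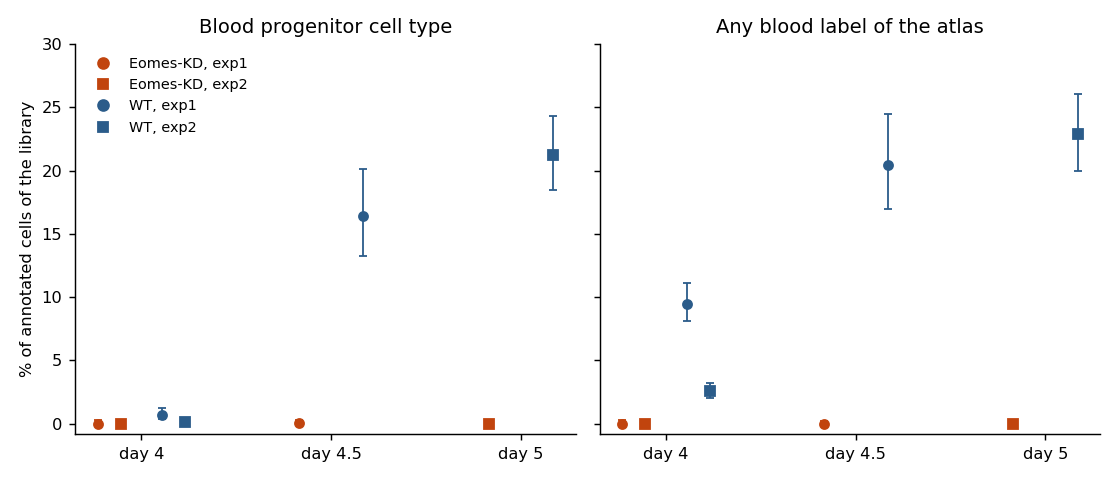
Share of annotated cells per library (y axis, %) by day (x axis), for the blood progenitor type (left) and for any blood label of the atlas (right). Each point is 1 library with its 95% Wilson interval, in orange for Eomes-KD and in blue for WT, as circles for exp1 and squares for exp2. WT libraries reach 16.4% and 21.2% of the type at days 4.5 and 5, whereas the blood labels are already at 9.49% and 2.59% in the WT libraries of day 4.

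A count of 0 was read against a floor of 3 cells over the Eomes-KD libraries of the day. In each bound given here the WT share was taken as counted, without its own counting error. On that floor the share of blood progenitors was at least 4.84-fold lower in Eomes-KD than in WT at day 4 and at least 83.4-fold lower at day 5. The bound of day 4 moved with the library: it was 3.36-fold within exp1 and 1.40-fold within exp2, each on the floor of its own Eomes-KD library. In exp2 the low end of the WT interval (0.0552%) lay below the Eomes-KD floor (0.101%). At day 4 exp2 alone thus did not separate the conditions by this type. At day 4.5, where 1 Eomes-KD cell was found, the share was 282-fold lower in Eomes-KD, with an exact counting interval of 49.1 to 11308. Over days 3.5 to 5, edgeR's quasi-likelihood test on cells per type and library, with day as a term, called the type lower in Eomes-KD (adjusted p = 1.08e-06, lower in 4 of the 4 pairs of libraries that held any). The same test called 41.7% of all 12 types lower in Eomes-KD, so that the call by itself did not set blood progenitors apart. It was lost with DESeq2 (adjusted p = 0.0752) and with limma on arcsine square root shares (adjusted p = 0.0661). Of all 12 types, DESeq2 called 1 lower and 3 higher, and limma called 0 in either direction. These p-values do not measure how blood progenitors varied between libraries at days 4.5 and 5, which had 1 library per condition.

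The 1 Eomes-KD cell had no blood label of the atlas. Its label was Haematoendothelial_progenitors, held by 0.64 of its 25 nearest atlas cells, and its stage was E7.25. It had 10218 RNA counts, which was below the median of 19185 over the other Eomes-KD cells of day 4.5. Its mitochondrial percent was 13.52 and its ribosomal percent 14.87, against medians of 7.41 and 10.31 in those cells.

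The atlas labels were given cell by cell from the RNA, without the clusters, so they offer a second count of blood cells that does not use the annotated type. They are not independent of it in full, since the study named its types partly by the atlas cells they mapped to. Among them, Blood_progenitors_1 and Blood_progenitors_2 are the early blood labels of the atlas, and Erythroid1 and Erythroid2 are red cell labels. Haemoglobin genes were left out of the mapping, so the transfer of these labels to the cells did not use globin RNA. Over days 3.5 to 5, 0 of 11856 Eomes-KD cells had any of the 4 labels, which allows a share of up to 0.0253%. In WT, 470 of 15279 cells did. At day 3.5 the WT libraries had 0 such cells too, so that day did not bear on the difference. At day 4 the labels were on 0 of 4419 Eomes-KD cells and on 210 of 4261 WT cells, at least 72.6-fold lower in Eomes-KD. This bound was 46.0-fold within exp1 and 25.6-fold within exp2. On day 4.5 the count was 0 of 1722 in Eomes-KD and 91 of 445 in WT (20.4%), at least 117-fold lower in Eomes-KD. On day 5 it was 0 of 1177 in Eomes-KD and 169 of 739 in WT (22.9%), at least 89.7-fold lower in Eomes-KD.

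By label, Blood_progenitors_1 was on 0 cells in each Eomes-KD library, and in WT on 114 (exp1, 7.90%) and 70 (exp2, 2.48%) cells at day 4, 23 at day 4.5 (5.17%) and 13 at day 5 (1.76%). Blood_progenitors_2 was likewise on 0 cells in each Eomes-KD library, and in WT on 23 (exp1, 1.59%) and 3 (exp2, 0.106%) cells at day 4, 67 at day 4.5 (15.1%) and 78 at day 5 (10.6%). The second label thus had a larger share of WT cells at days 4.5 and 5 than in either library of day 4, whereas the WT share of the first at day 4.5 lay between those of the 2 libraries of day 4. Erythroid1 was on 0 Eomes-KD cells, and on 1 WT cell at day 4.5 and 72 at day 5, and Erythroid2 was on 6 WT cells, all of day 5. In edgeR's test over the 20 labels with at least 10 cells, Blood_progenitors_1 (adjusted p = 0.0266) and Blood_progenitors_2 (adjusted p = 0.0460) were lower in Eomes-KD, and they were the 2 labels behind the 10.0% of all labels called lower. Neither call held with DESeq2 (adjusted p = 0.148 for both) or among cells above their library's median RNA count (edgeR adjusted p = 0.0558 for Blood_progenitors_1 and 0.0592 for Blood_progenitors_2), and over 19 alternatives the first label lost its call in 5 and the second in 9. Without the Eomes-KD library of day 4.5 the adjusted p was 0.124 and 0.137 for these labels, and without the WT library of that day it was 0.124 and 0.137 (edgeR). Over all labels, DESeq2 called 0 of 20 lower and 1 higher. On cells above their library's median RNA count, edgeR called 0 of 19 labels in either direction. In edgeR's test over the 20 labels, Erythroid1 missed the threshold (adjusted p = 0.0743), and Erythroid2 had too few cells to be tested.

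The experiments were paired by day. With experiment as a block, Blood_progenitors_1 and Blood_progenitors_2 each had an adjusted p of 6.97e-05 (edgeR). Erythroid1 was then called lower too (adjusted p = 0.00285, edgeR). So was Haematoendothelial_progenitors (adjusted p = 0.0112, edgeR), which had an adjusted p of 0.0743 without the block. At day 3.5 that label was on 1.81% (exp1) and 0.263% (exp2) of Eomes-KD cells, against 6.59% and 4.21% of WT cells. At day 4 it was on 178 of 1453 (exp1) and 181 of 2966 (exp2) Eomes-KD cells, against 411 of 1443 and 701 of 2818 in WT. On day 4.5 the count was 129 of 1722 in Eomes-KD and 90 of 445 in WT, and on day 5 it was 126 of 1177 in Eomes-KD and 91 of 739 in WT. Without the block, days 4 to 5 alone gave it an adjusted p of 0.259 (edgeR). These counts cover all types, and of the cells of days 4 to 5 1 Eomes-KD and 6 WT cells with the label were blood progenitors.

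The annotated type and the atlas labels parted most at day 4. Of the 210 WT cells of day 4 with a blood label, 13 were annotated as blood progenitors (6.19%, interval 3.65 to 10.3). At day 4.5 it was 70 of 91 cells (76.9%, interval 67.3 to 84.4), and at day 5 it was 151 of 169 (89.3%, interval 83.8 to 93.2). The other cells with a blood label at day 4 were almost all annotated as HE, 125 in exp1 and 70 in exp2, with 2 in endothelium in exp1. At day 4.5, 20 were HE and 1 was endothelium. At day 5, 1 was HE, 16 were endothelium and 1 was allantois. A count of blood cells by label therefore gave 9.49% (exp1, interval 8.09 to 11.1) and 2.59% (exp2, interval 2.07 to 3.24) of WT cells at day 4, against 0.693% and 0.142% by type.

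The split followed the label. Of the 220 cells labelled Blood_progenitors_1, 11 were blood progenitors, 197 were HE and 12 were endothelium. Of the 171 cells labelled Blood_progenitors_2, 144 were blood progenitors (84.2%), 19 were HE, 7 were endothelium and 1 was allantois. All 73 cells labelled Erythroid1 and all 6 labelled Erythroid2 were blood progenitors. Within the Blood_progenitors_2 label, the scores of the annotated types also differed in both exp1 libraries. In the exp1 library of day 4 the label score, the share of the 25 nearest atlas cells that carried the label, had a median of 1 in 9 blood progenitors and of 0.58 in 14 HE cells. At day 4.5 the median was 0.96 in 63 blood progenitors and 0.66 in 4 HE cells. In exp2 at day 4 it ran the other way, with a median of 0.76 in 2 blood progenitors and 0.84 in 1 HE cell.

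The makeup of the WT blood progenitors differed between days 4.5 and 5. At day 4, 11 of 14 cells had the label Blood_progenitors_2, 2 had Blood_progenitors_1 and 1 had Haematoendothelial_progenitors, with no erythroid label. At day 4.5, 63 of 73 had Blood_progenitors_2 (86.3%, interval 76.6 to 92.4), 6 had Blood_progenitors_1, 3 had Haematoendothelial_progenitors and 1 had Erythroid1. At day 5, 70 of 157 had Blood_progenitors_2 (44.6%, interval 37.03 to 52.4), 72 had Erythroid1 and 6 had Erythroid2. Any erythroid label was thus on 1 of 73 cells at day 4.5 (1.37%, interval 0.242 to 7.36) and 78 of 157 at day 5 (49.7%, interval 41.96 to 57.4). The intervals do not overlap, but with 1 library a day, from different experiments, no test over libraries could be made. The remaining 9 cells of day 5 had Blood_progenitors_1 (3), Haematoendothelial_progenitors (2), Allantois (2), Endothelium (1) and ExE_mesoderm (1).

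**Figure D2:**
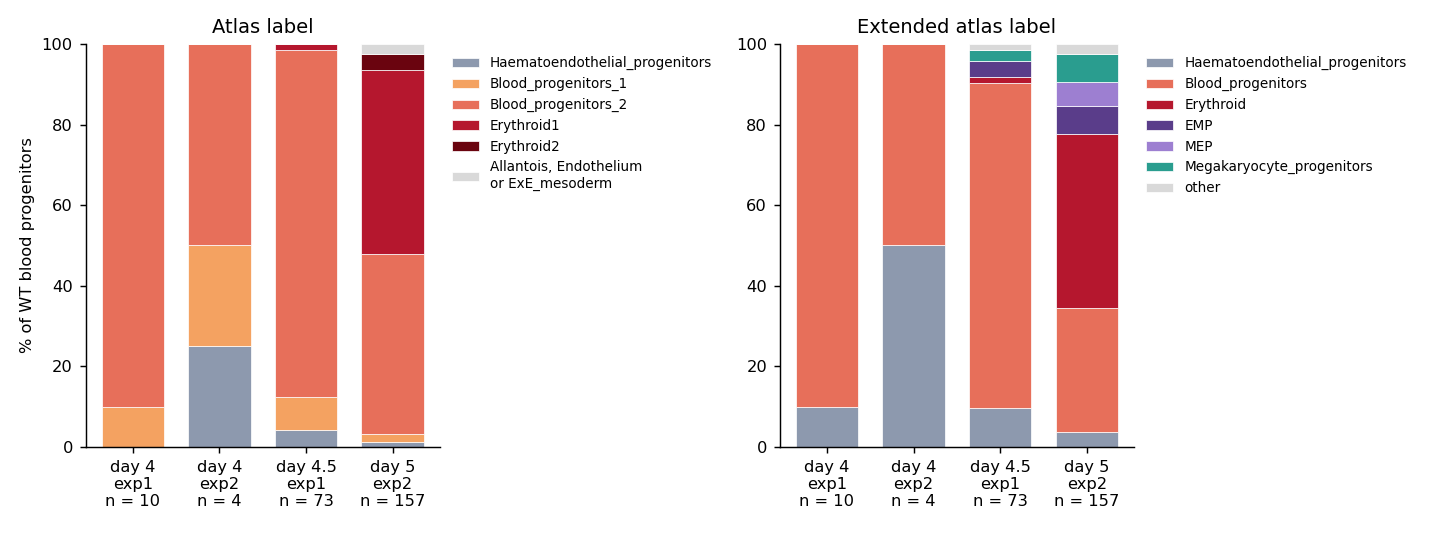
Share of WT blood progenitors of each library (y axis, %) with each atlas label (left) and each extended atlas label (right), for the 4 WT libraries in order of day, with the number of cells under each bar. Erythroid labels (dark red) are on 1 of 73 cells at day 4.5 and on 78 of 157 at day 5 by the atlas label, and EMP, MEP and Megakaryocyte_progenitors labels together are on 31 cells at day 5.

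Labels from an updated, extended gastrulation atlas divided these cells further. It names Blood_progenitors, Erythroid, EMP, MEP (as in a megakaryocyte-erythroid progenitor, which can form platelet-making and red cells) and Megakaryocyte_progenitors. At day 4, 11 cells had Blood_progenitors and 3 had Haematoendothelial_progenitors. At day 4.5, 59 of 73 cells had Blood_progenitors (80.8%, interval 70.3 to 88.2) and 7 had Haematoendothelial_progenitors. The other cells of that day had EMP (3), Megakaryocyte_progenitors (2), Erythroid (1) and Allantois_endothelium (1). At day 5 the leading label was Erythroid, on 68 of 157 cells (43.3%, interval 35.8 to 51.1), followed by Blood_progenitors on 48 (30.6%, interval 23.9 to 38.2). EMP was on 11 cells, Megakaryocyte_progenitors on 11, MEP on 9 and Haematoendothelial_progenitors on 6, with 4 cells on Allantois, Lateral_plate_mesoderm or Venous_endothelium.

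The EMP, MEP and megakaryocyte labels together were on 5 of 73 cells at day 4.5 (6.85%, interval 2.96 to 15.1) and 31 of 157 at day 5 (19.7%, interval 14.3 to 26.7), and on none of the 14 at day 4. These intervals overlap slightly. The first atlas did not separate these cells: over all WT days, 12 of 14 EMP cells, 13 of 13 megakaryocyte cells and 5 of 9 MEP cells had the label Blood_progenitors_2. The other 4 MEP cells had Erythroid1, and the other 2 EMP cells had Blood_progenitors_1. Of the 69 Erythroid cells of the extended labels, 63 were Erythroid1 and 6 were Erythroid2.

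The extended labels of these small groups were held less firmly. At day 5 the median extended label score, the share of the 25 nearest atlas cells with that label, was 0.92 in the 68 Erythroid cells (lowest 0.4, highest 1) and 0.76 in the 48 Blood_progenitors cells (0.32 to 1). It was 0.56 in the 11 EMP cells (0.36 to 0.72), 0.52 in the 9 MEP cells (0.4 to 0.68) and 0.52 in the 11 megakaryocyte cells (0.36 to 0.84). The first atlas label of the same 11 megakaryocyte cells had a median score of 1. Many neighbours of an EMP, MEP or megakaryocyte cell thus had another extended label.

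The stage of the nearest atlas cells was later in the WT libraries of later days. At day 4, 4 of 14 cells had stage E7.5, 9 had E7.75 and 1 had E8.0. At day 4.5, 27 of 73 had E7.75 and 35 had E8.0, with 3 before E7.75 and 8 at E8.25 or E8.5. At day 5, 82 of 157 had E8.0, 36 had E8.25 and 27 had E8.5, the last atlas stage used in the mapping, and 12 had earlier stages. Stages of E8.0 or later were on 1 of 14 cells at day 4 (7.14%, interval 1.27 to 31.5), 43 of 73 at day 4.5 (58.9%, interval 47.4 to 69.5) and 145 of 157 at day 5 (92.4%, interval 87.1 to 95.6). No interval overlapped another, but these intervals count cells and not libraries. Days 4.5 and 5 had 1 library each, from different experiments. Day, experiment and library thus cannot be told apart, and no test over libraries could be made. The stage was a loose call in single cells, with median stage scores of 0.46 and 0.5 (exp1 and exp2) at day 4, 0.48 at day 4.5 and 0.52 at day 5.

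Among day 5 cells the stage split with the extended label. Of 68 Erythroid cells, 42 had E8.0, 25 had E8.25, 1 had E7.75 and 0 had E8.5. Of 48 Blood_progenitors cells, 33 had E8.0, 8 had E8.25, 5 had E7.75 and 2 had E8.5. All 11 megakaryocyte cells, 8 of 11 EMP cells and 6 of 9 MEP cells had E8.5. Together these 3 labels made up 25 of the 27 blood progenitors at E8.5. At day 4.5 the 2 megakaryocyte cells also had E8.5, together with 3 of the 59 Blood_progenitors cells, but the 3 EMP cells did not (2 at E8.0, 1 at E8.25). Label and stage were read from the same 25 atlas cells, so this is a description of where the cells mapped and not a relation between separate measures. No stage after E8.5 could be given, because the mapping ended there.

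**Figure D3:**
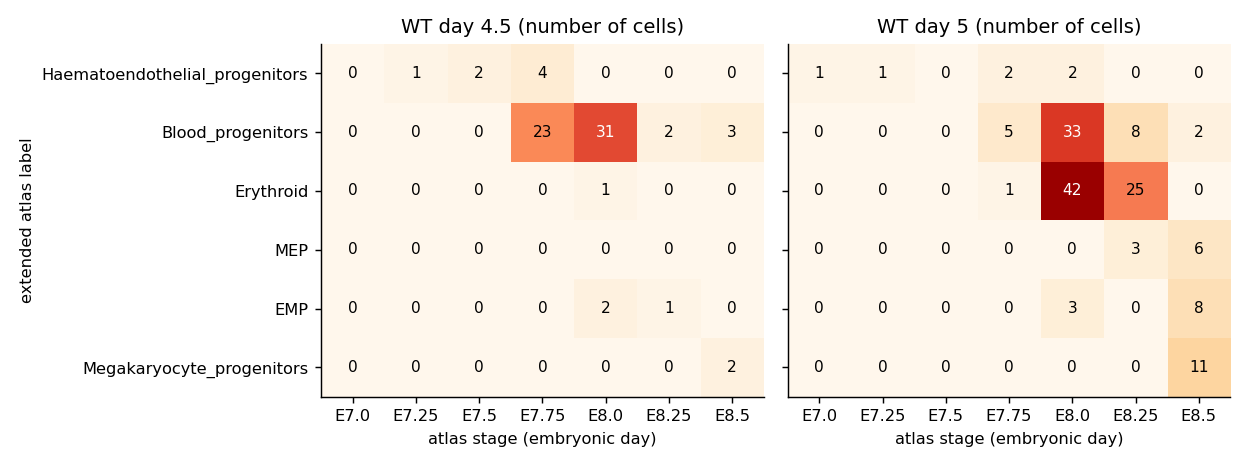
Number of WT blood progenitors at each combination of extended atlas label (rows) and atlas stage (columns, embryonic day), at day 4.5 (left) and day 5 (right), with darker cells for larger numbers and the rare labels outside blood and HE left out. At day 5 the 68 Erythroid cells lie at E7.75 to E8.25, whereas 25 of the 31 EMP, MEP and megakaryocyte cells lie at E8.5.

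The closest single atlas cell of each blood progenitor varied widely. The 244 WT cells had 175 distinct closest atlas cells, and no atlas cell was the closest of more than 7. There were 63 distinct closest cells for 73 blood progenitors at day 4.5 and 109 for 157 at day 5. Only 7 atlas cells served both days, for 10 blood progenitors of day 4.5 and 8 of day 5. Sharing was also uncommon within a day. Of the closest atlas cells, 55 of 63 at day 4.5 and 81 of 109 at day 5 were not shared by blood progenitors of that day. The overlap between other sets of cells was not measured, so these counts do not show whether the days differed. The mapping was done library by library, and the part of this in the low overlap was not tested.

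Atlas label scores of blood progenitors were high beside those of other cells. The median atlas label score was 0.98 in the 10 blood progenitors and 0.68 in other cells of the WT exp1 library of day 4. It was 0.96 in blood progenitors and 0.76 in other cells at day 4.5, and 0.92 in blood progenitors and 0.8 in other cells at day 5. Among types with at least 10 cells, blood progenitors had the highest median in exp1 at day 4 (of 9 types) and at day 4.5 (of 6), and at day 5 came after primordial germ cells (1). Other types came close, with 0.92 in allantois at day 4.5 and 0.88 in endothelium at day 5. By the extended label score they ranked 2 of 9 in exp1 at day 4, 2 of 6 at day 4.5 and 3 of 6 at day 5. At day 5 that score was 0.76 in blood progenitors and 0.8 in other cells. In the 4 cells of exp2 at day 4 the median atlas label score was 0.76, against 0.72 in other cells and 0.84 in HE. Their median extended label score was 0.8, against 0.76 in other cells. Cells could not be thinned to 1 depth from the deposited table, so these scores are given at unequal depths.

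The blood progenitors were rich in RNA. In the exp1 library of day 4 their RNA counts ran from 11768 to 41202 with a median of 29441, against a median of 22960 in other cells. At day 4.5 they ran from 5838 to 32705 with a median of 17193, against 15159.5 in other cells. At day 5 they ran from 5711 to 41247 with a median of 14517, against 12423 in other cells. In each of these 3 libraries theirs was the highest median of all types with at least 10 cells (9, 6 and 6 types). The mean of the 3 differences was 3536 counts (SD 2550, n = 3 libraries), and it was 2064 without the exp1 library of day 4, which had 10 blood progenitors. In exp2 at day 4, with 4 blood progenitors, their median was 12164.5, against 12669 in HE and 11263.5 in all other cells, and their mean was 11609, below the 12760 of all other cells. The next type was close at day 5, where primordial germ cells had a median of 14127.5. In the 3 larger sets, HE cells had a median of 24814 in exp1 at day 4 and 16168 at day 4.5, and endothelium had 13427.5 at day 4.5 and 12821 at day 5, each below the blood progenitors of the same library.

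The ribosomal percent, the percentage of a cell's RNA counts from ribosomal genes, was also higher in blood progenitors than in all other cells of the library. The medians were 11.13 in blood progenitors and 10.74 in other cells of exp1 at day 4, 10.08 in blood progenitors and 9.505 in other cells at day 4.5, and 8.32 in blood progenitors and 7.35 in other cells at day 5. The mean difference was 0.645 percentage points (SD 0.296, n = 3 libraries), and it was positive in 3 of 3. Among types with at least 10 cells, blood progenitors were sixth of 9 in exp1 at day 4, where primitive streak had 13.37, the highest of 6 at day 4.5 and second of 6 at day 5, where primordial germ cells had 9.37. The 4 blood progenitors of exp2 at day 4 also lay higher, with a median of 9.77 against 9.225 in other cells. The cells themselves spread far more than this, from 4.85 to 17.98 at day 4.5 alone. With 3 libraries an exact test could not pass 0.05, and none was run.

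The mitochondrial percent did not keep 1 direction. Its median was 6.73 in blood progenitors and 7.42 in other cells of exp1 at day 4, and 5.94 in blood progenitors and 7.585 in other cells at day 4.5, where it was the lowest of 6 types. At day 5 it was 5.19 in blood progenitors (quartiles 3.88 and 6.3) and 2.725 in other cells (quartiles 1.84 and 3.98), the highest of 6 types. Endothelium, the next type at day 5, had 3.72, and had been the highest type at day 4.5 with 8.625. The medians of blood progenitors at days 4.5 and 5 (5.94 and 5.19) thus lay closer together than those of other WT cells (7.585 and 2.725). The other cells of Eomes-KD libraries had medians of 7.41 at day 4.5 and 4.98 at day 5.

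**Figure D4:**
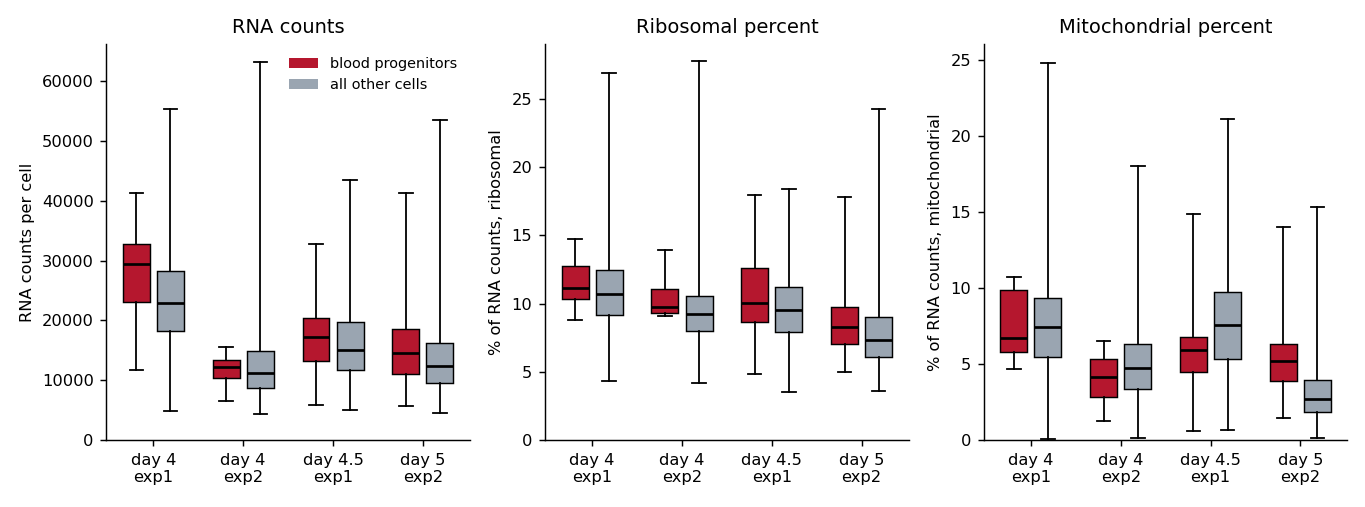
RNA counts per cell (left), ribosomal percent (middle) and mitochondrial percent (right) of blood progenitors (red) and all other cells (grey) in the 4 WT libraries of days 4 to 5. Boxes span the quartiles with the median as a line, and whiskers reach the lowest and highest cell. RNA counts and ribosomal percent have the higher median in blood progenitors in every library shown, whereas the mitochondrial percent is lower up to day 4.5 and higher at day 5 (5.19 and 2.725).

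Within the day 5 library the erythroid and other blood progenitors overlapped widely. RNA counts ran from 6309 to 41247 (median 14385) in the 68 Erythroid cells of the extended labels and from 5711 to 33180 (median 14358) in the 48 Blood_progenitors cells. The mitochondrial percent ran from 1.86 to 10.7 (median 5.645) in Erythroid cells and from 1.46 to 14.02 (median 5.215) in Blood_progenitors cells. Among extended labels with at least 5 cells, MEP cells had the highest median RNA count (19028, lowest 7396, highest 22666) and the lowest mitochondrial percent (3.43, lowest 2.46, highest 6.98), and megakaryocyte cells had the lowest median RNA count (10987, lowest 7382, highest 19707). These are cells of 1 library, with 9 MEP and 11 megakaryocyte cells, and no test was made over them.

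Doublet scores give a view of cells that may be 2 nuclei under 1 barcode. The authors had already removed cells with high scores. The median score was 0.215 in blood progenitors and 0.27 in other cells of exp1 at day 4, 0.29 in blood progenitors and 0.36 in other cells at day 4.5, and 0.12 in blood progenitors and 0.32 in other cells at day 5, where it was the lowest of 6 types. The 6 blood progenitors of day 5 without a blood label had a median of 0.59 (lowest 0.37, highest 1.14), against 0.12 in the 151 with one. High scores were not limited to them, since the 3 cells of day 5 with the label Blood_progenitors_1 had 0.65 to 0.87 (median 0.79). The atlas label score had a median of 0.56 in the 6 cells without a blood label, against 0.92 in the 151. At day 4.5 the 3 cells without a blood label had a median doublet score of 0.13, against 0.3 in the 70 with one. In all, 5 blood progenitors had a score over 1, of which 1 was in exp2 at day 4 and 4 were of day 5.

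On the UMAP of the joint RNA and chromatin factors the blood progenitors formed a compact arm next to HE and endothelium. Their median distance from their own median position was 0.329 units, and the 95th percentile was 1.14. Erythroid1 and Erythroid2 cells lay at the far end of the arm, and cells labelled Haematoendothelial_progenitors or Blood_progenitors_1 lay mostly at the end near HE. The axes have no unit, and clusters and UMAP share the same factors, so that compactness is a property of how the type was drawn. There were 2 cells of day 5 far outside the arm, at distances of 6.78 and 5.63, among or near endothelium. The farther one had the label ExE_mesoderm with a label score of 0.4, and the other had Blood_progenitors_1.

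**Figure D5:**
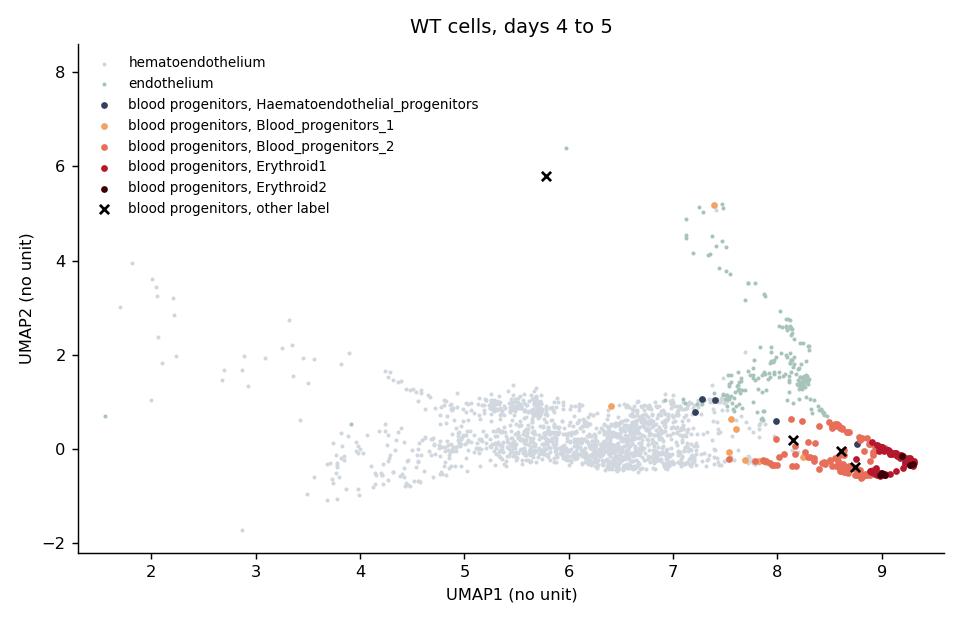
Positions of WT cells of days 4 to 5 on the 2 UMAP axes (no unit), with blood progenitors coloured by atlas label, HE cells in light grey and endothelium in light green, and other types left out. Erythroid1 cells (dark red) and Erythroid2 cells (very dark maroon) sit at the right end of the blood progenitor arm. Black crosses are blood progenitors with the label Allantois, Endothelium or ExE_mesoderm. Apart from the arm lie 2 blood progenitors, at distances of 6.78 and 5.63 from the median position.

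Cell barcodes were checked for reuse between libraries. Over all libraries 1218 cells had a barcode that also occurred in another library, among them 11 blood progenitors, and 0 barcodes were shared between blood progenitors of different libraries. The libraries of days 4 to 5 held 445 to 2966 annotated cells, with the fewest in WT at day 4.5, and their median RNA count per cell ran from 10527.5 to 23017.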

How the data were processed

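EBs were profiled with the 10x multiome kit. Per the labels and methods, the authors mapped reads to mm10 with Cell Ranger ARC 2.0.1, filtered nuclei on RNA and chromatin quality, removed doublets, transferred atlas labels within each library and clustered joint factors. Each annotated cell has 1 line in the deposited table, of whose 28 columns 18 were read. It gives RNA and gene counts per cell, percent mitochondrial and ribosomal RNA, doublet scores and UMAP positions as scores, and label scores, which the authors gave as a fraction of 25 nearest atlas cells (every value was a whole multiple of 1 in 25, within 1e-06). Columns of replicate names were not used, and libraries were mapped by their labels. For the day 5 libraries the replicate column and the labels differ, and exp2 follows the labels.

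Cells were counted per type or label and library and tested with edgeR 4.0.16 (quasi-likelihood, 1 common dispersion, two-sided) over the 12 libraries of days 3.5 to 5, with day as a term, annotated cells as library size and a minimum of 10 cells. P-values were adjusted by Benjamini-Hochberg with a threshold of 0.05. They rest on the spread between these libraries, with edgeR's common dispersion shared by all types or labels. The single libraries of days 4.5 and 5 were taken to vary as the rest do. For blood progenitors, only WT day 4 had 2 libraries of 1 condition and day that held any (10 and 4 cells). The p-values thus do not measure how this type varied between libraries at the later days. Alternatives were DESeq2 1.42.0, limma 3.58.1, TMM factors, no filter, days 4 to 5 only, deeper cells, each library left out and experiment as a block. The 2 experiments were separate differentiations, and deviations from the group means of the same experiment correlated over the 12 types (r = 0.663 at day 3.5 and 0.814 at day 4), so the numbers pair the libraries. Among the tests, only the run with experiment as a block used this pairing. Measures per cell were compared as medians within libraries with at least 10 cells of both groups. The edgeR test was tested on simulated data, in which no type was made absent from a condition or a day. The case of blood progenitors was thus not covered by it. Labels with at least 5 cells were to be named, and rarer ones named beside them were chosen after their values were seen. The cells, labels and tests were chosen with earlier results of these data known.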

Additional observations from a re-analysis of the deposited data

Results flagged for a closer look

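The median mitochondrial percent of blood progenitors minus that of all other cells of the same WT library was -0.69 percentage points in exp1 at day 4 (10 blood progenitors), -1.645 at day 4.5 (73) and 2.465 at day 5 (157). It was picked out because the sign turned between days. The extended label score was picked out for the same reason, with differences of 0.12 in exp1 at day 4, 0.12 at day 4.5 and -0.04 at day 5. With 1 library a day behind these values, neither turn was tested. Day 5 is also the one of these libraries from exp2. In exp2 at day 4 the 4 blood progenitors lay 0.595 percentage points below other cells in mitochondrial percent (4.16 and 4.755) and 0.04 above them in extended label score.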

How the results depend on the processing

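The blood progenitor call in Eomes-KD against WT kept its direction and side of the threshold in 17 of 19 alternatives, and the adjusted p was 3.93e-06 with the experiment as a block and 1.1e-11 to 0.00349 with each library left out (edgeR). It missed the threshold with DESeq2 (adjusted p = 0.0752) and limma (adjusted p = 0.0661), which called 1 and 0 of all 12 types lower. The number of blood labels called lower was 2, and was 3 with the block, 0 with DESeq2, 1 with limma and 0 in the deeper cells of each library (RNA count over the library's median). With 1 library left out it ran from 0 to 3: it was 0 without Eomes-KD day 4 replicate 2, Eomes-KD day 4.5 or WT day 4.5, and 1 without Eomes-KD day 3.5 replicate 2, Eomes-KD day 5 or WT day 5. Adjusted p over all alternatives ran from 6.2e-07 to 0.148 for Blood_progenitors_1, 6.7e-07 to 0.148 for Blood_progenitors_2, 0.00285 to 0.767 for Erythroid1 and 0.0112 to 0.278 for Haematoendothelial_progenitors. Over all labels, the block called 5 lower and 4 higher in place of 2 and 0. The causes were not tested, and the block changed no other call given here.

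With any blood label in place of the type, the WT share moved to 9.49% (exp1) and 2.59% (exp2) at day 4 and to 20.4% at day 4.5. Among deeper cells it was 20.3% at day 4.5 and 28.2% at day 5, the erythroid share at day 4.5 was 0% and the Blood_progenitors_2 share at day 4.5 was 93.3%. Label shares at day 5 moved by less than their intervals, with erythroid labels at 49.7% to 51.0%. The mean difference from other cells ranged from 2064 to 4288 RNA counts, 0.482 to 0.773 points of ribosomal percent, -1.17 to 0.888 points of mitochondrial percent and 0.16 to 0.25 of atlas label score with 1 library left out. A minimum of 5 cells added no library. The day 4 shares rest on 10 and 4 blood progenitors, and the gene markers of the type could not be read at any depth from the deposited table.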
